A study of Mus musculus with 12 samples.

Results

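Long-chain fatty acids enter adipose tissue through a small set of membrane transporters and are carried inside the cell by binding proteins, and 10 genes of this machinery were followed on the arrays of Lr11-/- and wild-type mice. They are the fatty acid transport protein genes Slc27a1, Slc27a2, Slc27a3, Slc27a4 and Slc27a5, the fatty acid translocase Cd36, the fatty acid binding protein genes Fabp3, Fabp4 and Fabp5, and the lysophospholipid transporter Mfsd2a. The 10 were taken from 14709 genes with a symbol and a tested probe, and all 12 of their probes were tested. Slc27a2, Fabp3 and Mfsd2a were selected on their values in scWAT, because they were among the largest rises in Lr11-/- scWAT. The difference between genotypes in scWAT is therefore given as a description, with no test for any of the 10, and the contrasts that share those arrays are tested for the other 7 only. The genotype contrast in BAT was not named in that choice, but it is not fully separate from it. Slc27a2, Fabp3 and Mfsd2a are all in the list of top scWAT rises that the authors published. That list came from a cluster whose pattern has Lr11-/- BAT equal to or above WT BAT.

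RNA came from subcutaneous white adipose tissue (scWAT) and brown adipose tissue (BAT) of WT and Lr11-/- mice, which gives 4 groups of genotype and tissue with 3 arrays each. All mice were male, of strain C57Bl6/J and 12 weeks old, and all were fed a high-fat diet (HFD) that drew 60% of its calories from fat. The sample description gives 4 weeks of HFD whereas the treatment text has it begin at weaning, so its length is unsettled. Lr11-/- mice lack Lr11 (Sorl1, a sorting receptor related to the low-density lipoprotein receptor) in the whole body and were compared with WT littermates, so a difference need not arise in adipocytes. The labels do not say whether the 3 arrays of a group are separate mice, and p-values then measure only the spread between these arrays.

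In adipose tissue, fatty acids are set free from circulating lipoproteins at the vessel wall, cross the endothelium and the plasma membrane, and are trapped in the cell by conversion to acyl-CoA. Transport proteins of the Slc27a family carry acyl-CoA synthetase activity themselves, Cd36 binds long-chain fatty acids at the cell surface, and the Fabp proteins shuttle them through the cytosol. White adipocytes store the fatty acids as triglyceride, and brown adipocytes also burn them for heat.

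Promoter windows of the 3 genes with the large rises are shown because these genes were high in the same group of scWAT arrays. The windows are from RefSeq on build GRCm38.p6, reach from 250 bases before to 50 bases after the annotated start, and run 5′ to 3′ on the strand of the gene. Slc27a2 lies at chr2:126552774-126553073 on the plus strand, Fabp3 at chr4:130308488-130308787 on the plus strand and Mfsd2a at chr4:122961139-122961438 on the minus strand. Capitals mark AGGTCA, the motif bound by many nuclear receptors, the GC box GGGCGG and the CCAAT box, each searched on both strands.
Slc27a2: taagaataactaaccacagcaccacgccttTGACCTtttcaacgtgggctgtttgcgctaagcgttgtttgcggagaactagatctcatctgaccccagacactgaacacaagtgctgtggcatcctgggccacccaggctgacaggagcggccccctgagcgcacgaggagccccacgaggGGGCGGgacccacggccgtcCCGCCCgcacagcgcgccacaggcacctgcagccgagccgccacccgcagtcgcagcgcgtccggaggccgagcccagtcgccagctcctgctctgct
Fabp3: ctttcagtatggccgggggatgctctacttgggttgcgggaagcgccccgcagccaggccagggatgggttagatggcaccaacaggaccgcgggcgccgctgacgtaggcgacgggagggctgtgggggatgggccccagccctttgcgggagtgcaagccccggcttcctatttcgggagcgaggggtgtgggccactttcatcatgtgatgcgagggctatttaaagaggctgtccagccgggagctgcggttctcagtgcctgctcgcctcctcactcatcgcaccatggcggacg
Mfsd2a: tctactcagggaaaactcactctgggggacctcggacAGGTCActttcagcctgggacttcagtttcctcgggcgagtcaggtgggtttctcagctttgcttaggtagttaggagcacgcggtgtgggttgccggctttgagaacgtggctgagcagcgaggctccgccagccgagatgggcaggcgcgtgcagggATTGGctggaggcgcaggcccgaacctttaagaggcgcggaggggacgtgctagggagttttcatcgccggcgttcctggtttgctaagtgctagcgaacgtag
The Slc27a2 window held 1 AGGTCA motif, read on the opposite strand, and 2 GC boxes. The Mfsd2a window held 1 AGGTCA motif and 1 CCAAT box, and the Fabp3 window held none of the 3 motifs. AGGTCA was present in 16.3%, the GC box in 35.7% and the CCAAT box in 37.4% of all 32851 promoter windows. None of the 3 held TATAAA, found in 13.6% of windows, the cyclic AMP element TGACGTCA, found in 1.79%, or AGGNCA repeated after 1 spacer base, found in 0.381%. GC content was 65.3% for Slc27a2, 65% for Fabp3 and 60.3% for Mfsd2a, against a median of 52.7% over all windows. Windows were found for 7 of the 10 genes, the others with one being Slc27a1, Slc27a3, Slc27a4 and Cd36.

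Every level below is the log2 of the array intensity minus the 75th percentile of that array, so 0 is the upper quartile of the probes and 1 unit is a doubling in brightness. Levels of different probes are not comparable. The targeted gene was read first. Sorl1 lay between 0.11 and 1.21 on the 6 WT arrays and between -3.93 and -2.45 on the 6 Lr11-/- arrays, and it fell by 4.34 in scWAT (limma adjusted p = 0.0063) and fell by 3.63 in BAT (limma adjusted p = 0.0319). In BAT the adjusted p was 0.0624 once the array series entered the limma fit as a block, and 17 of 26 alternatives lost that call.

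Several arrays stood apart in their marker genes, and these values are carried through the results. Of the brown adipocyte markers, Ucp1 (10.14, limma adjusted p = 0.0326) and Cidea (8.70, limma adjusted p = 0.0405) were called higher in Lr11-/- scWAT. Both are also in the authors' list of top scWAT rises on these arrays. Cox8b (6.17) and Dio2 (3.95) had higher means without a call, whereas Zic1 had a lower mean (-1.65, limma adjusted p = 0.543). Zic1 read -6.86, 0.76 and 0.46 on the WT scWAT arrays and -3.79, -3.79 and -3.00 on those of Lr11-/- scWAT. In scWAT the median of the 5 brown adipocyte markers (Ucp1, Cidea, Cox8b, Zic1, Dio2) was -1.20, -3.15 and 2.92 on the WT arrays in replicate order and 4.39, 9.53 and 9.68 on the Lr11-/- arrays, while all 6 BAT arrays lay between 9.27 and 9.61. Their summed intensity was 2.38 to 191 times the array's upper quartile in WT scWAT, 266 to 2960 times in Lr11-/- scWAT and 2070 to 2910 times in BAT. Between WT depots the marker genes called were Ucp1, Cidea, Cox8b, Dio2, Plin1 and Kdr, higher in BAT, and Adgre1, Cd163, Csf1r and Mrc1, lower in BAT. The median of the 8 skeletal muscle markers was 9.16 on WT scWAT replicate 3 and 9.14 on Lr11-/- scWAT replicate 1, and between -5.27 and -2.67 on the other 4 scWAT arrays. All 8 were well above background on the first pair and 3 to 5 of the 8 on the other 4, and their summed intensity spanned 3.77 to 4330 times the upper quartile in WT scWAT and 29.6 to 3750 times in Lr11-/- scWAT. In BAT the muscle median was 7.31 and 6.94 on replicates 1 and 3 of WT and 6.56 on replicate 1 of Lr11-/-, against -5.11 to -3.72 on the rest. The median of the 5 adipocyte markers (Adipoq, Plin1, Cidec, Lep, Retn) was 2.75 on WT scWAT replicate 2 and 6.46 to 8.07 on the other 11 arrays, and macrophage markers were highest on that same array, at 3.80. The 5 macrophage markers measured, Adgre1, Csf1r, Cd14, Cd163 and Mrc1, had a summed intensity of 30.1 to 131 times the upper quartile in WT scWAT and of 24.9 to 40.6 times in Lr11-/- scWAT. The sum of 6 epithelial markers reached 42.7 times the upper quartile on 1 Lr11-/- scWAT array, replicate 1, and at most 8.44 times on the rest. In bulk tissue, fewer cells of a type and less RNA per cell cannot be told apart. Replicate 1 of each group came from the first of 2 array series and replicates 2 and 3 from the second. By the array barcodes, scWAT arrays of the first series were on slide 1 and its BAT arrays on slide 3. All arrays of the second series were on slide 2. Depot differences within the first series therefore cannot be told apart from slide.

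Among the Slc27a transporters, Slc27a2 was far higher in Lr11-/- scWAT and in BAT than in WT scWAT. Slc27a2 encodes FATP2, a very long-chain acyl-CoA synthetase best known from liver and kidney. Its levels were -4.09, -5.75 and -1.15 on the 3 WT scWAT arrays and 1.29, 4.11 and 4.51 on the 3 Lr11-/- scWAT arrays. WT BAT arrays read 3.42, 4.16 and 5.45 and Lr11-/- BAT arrays 5.25, 4.78 and 5.52. The lowest Lr11-/- scWAT array, replicate 1, was above the highest WT scWAT array, replicate 3, and replicates 2 and 3 of Lr11-/- scWAT reached the range of WT BAT. Signal cleared background well on 2 of 3 WT scWAT arrays and on all 9 others. The mean difference of 6.97 in scWAT is therefore given as at least 92.3-fold higher. That bound allows for the dim array only, and smaller values came from parts of the data. The difference was 5.38 within the first array series and 7.76 within the second, and 5.92 without WT scWAT replicate 2. With normexp background correction it was 5.41.

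Slc27a2 did not pass the test between genotypes in BAT. The difference was 0.85 with a 95% interval of -1.62 to 3.31 (limma adjusted p = 1), and the levels of the genotypes overlapped. WT BAT exceeded WT scWAT by 8.0, given as at least 189-fold higher because of the dim WT scWAT array, and Lr11-/- BAT exceeded Lr11-/- scWAT by 1.88, or by 0.87 without Lr11-/- scWAT replicate 1. Both depot values share their scWAT arrays with the comparison that chose the gene and carry no test.

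Slc27a3, whose product is regarded mainly as an acyl-CoA synthetase, ran the other way and was highest in WT scWAT. The WT scWAT arrays had levels of 0.98, 0.70 and 0.65, and those of Lr11-/- scWAT had 0.46, 0.18 and -0.23. BAT was lower still, at -0.55, -0.36 and -0.24 for WT and at -0.66, -0.12 and -0.30 for Lr11-/-. Every Lr11-/- scWAT array was below every WT scWAT array, and the mean difference was -0.64, with -0.52 within the first array series and -0.70 within the second. Between depots of WT mice Slc27a3 fell by 1.16 in BAT (95% interval -1.68 to -0.64, limma adjusted p = 0.00809), which is 2.24-fold lower. It was called in all 25 alternatives that gave a test, with adjusted p between 0.00428 and 0.0357. Lr11-/- BAT was lower than Lr11-/- scWAT by a log2 difference of -0.50 (limma adjusted p = 0.569), and the genotypes overlapped in BAT, with a difference of 0.03 (95% interval -0.49 to 0.54).

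Slc27a4, the FATP4 gene known from intestine and skin, lay higher on every BAT array than on any scWAT array of the same genotype, and the depots were called apart in WT mice. Its levels were -1.29, -0.88 and -1.23 in WT scWAT, -1.12, -0.70 and -0.47 in Lr11-/- scWAT, -0.29, -0.50 and -0.51 in WT BAT and -0.07, 0.08 and -0.21 in Lr11-/- BAT. The group means increased in that order. WT scWAT and Lr11-/- scWAT overlapped, and the Lr11-/- BAT arrays lay above those of WT BAT. The depot difference was 0.70 in WT (95% interval 0.22 to 1.18, limma adjusted p = 0.0402) and 0.70 in Lr11-/- (95% interval 0.21 to 1.18, limma adjusted p = 0.395). The adjusted p in WT ranged from 0.0216 to 0.212 over 25 alternatives with a test, and 10 of them kept it past the threshold. Leaving out any 1 of the WT arrays other than scWAT replicate 2 took it to between 0.0731 and 0.127. In BAT all 3 Lr11-/- arrays were above all 3 WT arrays, yet the difference of 0.37 did not pass the test (95% interval -0.12 to 0.85, limma adjusted p = 1).

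Slc27a1 and Slc27a5 were not called in any comparison in which they were tested. Slc27a1, which encodes the insulin-responsive FATP1 of muscle and fat, had levels of 4.53, 1.79 and 3.73 on WT scWAT arrays and of 5.50, 3.06 and 3.62 on Lr11-/- scWAT arrays, and lay between 2.89 and 3.65 on the 6 BAT arrays. The spread within scWAT exceeded the mean difference of 0.71, which became -0.07 without WT scWAT replicate 2. In BAT the difference was 0.11 (95% interval -1.45 to 1.68, limma adjusted p = 1). Slc27a5, the bile acid CoA ligase of liver, was dim, and its 2 probes differed by up to 2.55 on the same array. The brighter probe lay between -4.34 and -2.45 over the 12 arrays and overlapped between genotypes in both tissues, while all 3 Lr11-/- BAT arrays lay above all 3 of Lr11-/- scWAT (0.46, limma adjusted p = 0.776). The dimmer one was well above background on 0 of 3 WT BAT arrays and on 3 of 3 Lr11-/- BAT arrays, where it was at least 1.55-fold higher without passing the test (limma adjusted p = 1).

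Cd36, the fatty acid translocase of the plasma membrane, was bright in all 4 groups. It read 7.02, 5.47 and 4.87 on the WT scWAT arrays, 5.50, 6.01 and 6.40 on those of Lr11-/- scWAT, and between 5.72 and 6.23 on the BAT arrays. The WT scWAT arrays spanned all of the other 9 arrays, with replicate 1 highest and replicate 3 lowest. The scWAT difference had opposite signs in the 2 array series, -1.52 in the first and 1.03 in the second, around a mean of 0.18. Neither the BAT difference of 0.20 (95% interval -0.82 to 1.21, limma adjusted p = 1) nor the WT depot difference of 0.08 (95% interval -0.93 to 1.09, limma adjusted p = 0.913) passed the test.

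**Figure D1:**
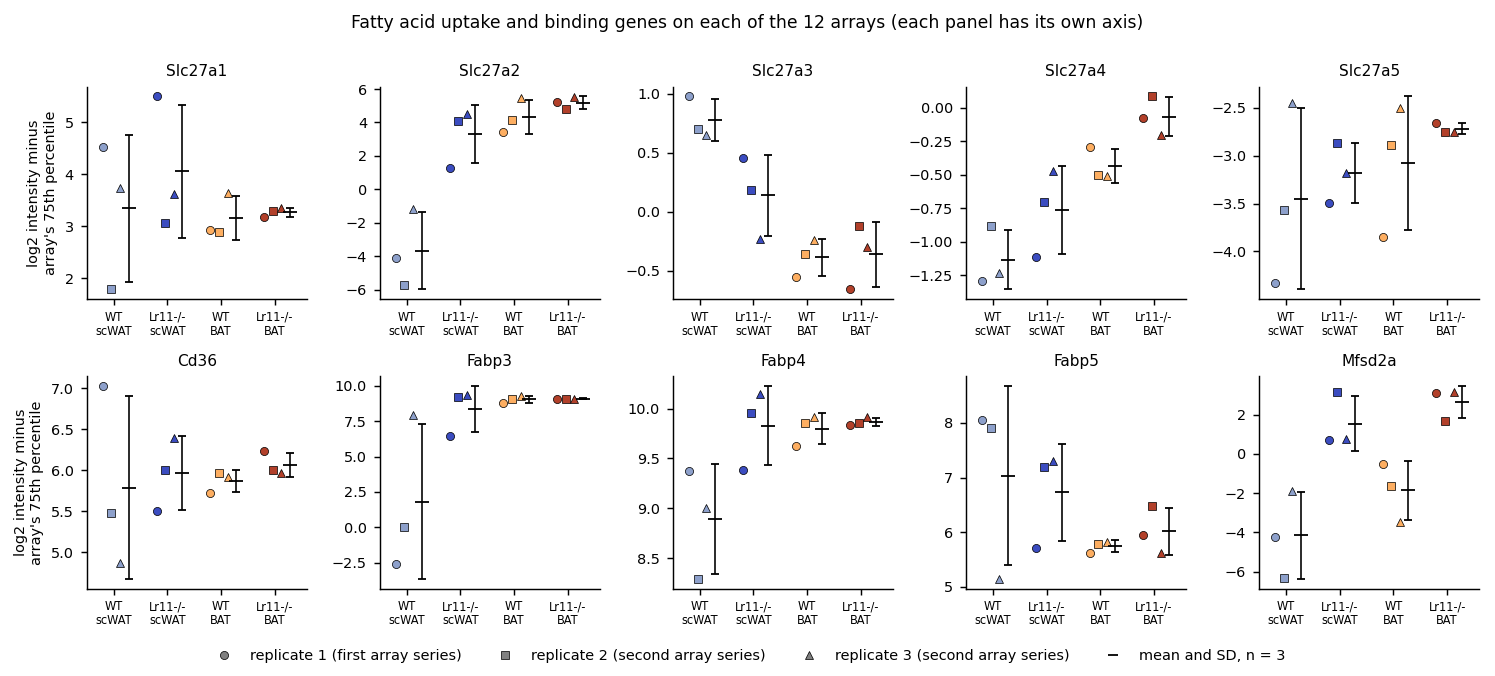
Level of each of the 10 genes on each array, as log2 intensity minus the 75th percentile of the array, by its brightest tested probe, with circles for replicate 1 of the first array series, squares and triangles for replicates 2 and 3 of the second, and bars for the mean and SD of 3 arrays. Slc27a2, Fabp3 and Mfsd2a span the widest ranges, with WT scWAT lowest, and the Mfsd2a levels of WT BAT lie below those of Lr11-/- BAT.

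Of the binding proteins, Fabp3 varied most within a group. It is the heart-type binding protein of oxidative muscle, heart and brown fat. WT scWAT arrays had levels of -2.56, 0.04 and 7.95, and Lr11-/- scWAT arrays had 6.49, 9.24 and 9.36. On the 6 BAT arrays it stayed between 8.78 and 9.29. WT scWAT replicate 3 was above Lr11-/- scWAT replicate 1, so the genotypes overlapped in scWAT although the means differed by 6.55. The difference was 9.62 without WT scWAT replicate 3 and 4.37 without replicate 1, and it was 9.04 in array series 1 and 5.31 in array series 2. The second Fabp3 probe differed by at most 0.45 from the first on any array and gave 6.75.

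Skeletal muscle markers were high on both arrays between which Fabp3 overlapped, WT scWAT replicate 3 and Lr11-/- scWAT replicate 1, and their part in that overlap was not tested. On replicates 2 and 3 of Lr11-/- scWAT, where Fabp3 was highest in that depot, the muscle median was -4.60 and -5.27, and 3 of the 8 muscle markers were well above background on each. Of the muscle markers, Myl1 read 4.83 and 5.16 on those arrays. Acta1 read -0.41 and -0.33, Tnni2 -1.41 and -1.71, and Tnnt3 -4.59 and -4.29. The brown adipocyte median was 9.53 and 9.68 there. The part of either marker list in these Fabp3 levels was not tested. In BAT the genotype difference of Fabp3 was 0.04 (95% interval -4.45 to 4.53, limma adjusted p = 1). The fit shares 1 spread among the 4 groups, and the SD of Fabp3 was 5.47 in WT scWAT and 0.26 in WT BAT (n = 3 each). WT BAT exceeded WT scWAT by 7.24, with 5.05 to 10.31 when single arrays were left out. Lr11-/- BAT exceeded Lr11-/- scWAT by 0.73, but the difference was -0.21 without Lr11-/- scWAT replicate 1 and -0.20 in the second array series. Neither depot value carries a test.

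Fabp4, the adipocyte binding protein, was bright on all 12 arrays, and WT scWAT held its 3 lowest levels. Those were 9.37, 8.29 and 9.0, while Lr11-/- scWAT arrays had levels of 9.38, 9.96 and 10.14. The BAT arrays read 9.63, 9.85 and 9.92 for WT and 9.84, 9.85 and 9.91 for Lr11-/-. The genotypes did not overlap in scWAT, where the mean difference was 0.94, but the difference was 0.01 within the first array series and 1.41 within the second. Replicate 2 of WT scWAT, with the lowest adipocyte marker median, was the lowest array, and without it the difference was 0.64. WT BAT was 0.91 above WT scWAT (95% interval 0.27 to 1.55, limma adjusted p = 0.0437), and the adjusted p was 0.126 without that array and ranged from 0.0162 to 0.219 over the 25 alternatives with a test, of which 10 kept the call. In BAT the genotypes differed by 0.07 (95% interval -0.57 to 0.71, limma adjusted p = 1).

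Fabp5, the epidermal-type binding protein also made by adipocytes and macrophages, was most variable in WT scWAT. Its levels there were 8.05, 7.91 and 5.14, against 5.71, 7.19 and 7.30 in Lr11-/- scWAT, and the 6 BAT arrays lay between 5.61 and 6.48. The mean difference in scWAT was -0.30, with -2.34 in the first array series and 0.72 in the second. WT BAT was lower than WT scWAT by a log2 difference of -1.29 (95% interval -2.83 to 0.26, limma adjusted p = 0.192). Without WT scWAT replicate 3 it was -2.24 with adjusted p = 0.00758, the only one of 25 alternatives to pass.

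Mfsd2a was higher on every Lr11-/- array than on every WT array of the same depot, and the BAT difference did not pass the test after adjustment. Mfsd2a carries lysophosphatidylcholine with its fatty acid across membranes, is best known from the blood-brain barrier, and is induced by fasting in liver and by cold in brown fat. In scWAT the WT arrays had levels of -4.22, -6.34 and -1.89 and the Lr11-/- arrays of 0.70, 3.15 and 0.77. In BAT the WT arrays had levels of -0.50, -1.64 and -3.45 and the Lr11-/- arrays of 3.07, 1.69 and 3.13. No WT array reached the lowest Lr11-/- array in either depot. Its signal cleared background well on 2 of 3 WT scWAT arrays and on the 9 others. The scWAT difference of 5.69 is given as at least 33.3-fold higher, which again allows for the dim array only. The difference was 4.92 in array series 1, 6.08 in array series 2 and 4.60 without WT scWAT replicate 2. With normexp background correction it was 3.69.

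The BAT arrays were not fully separate from the choice of the gene. In BAT the Mfsd2a log2 difference was 4.49 (95% interval 2.02 to 6.97), or 22.5-fold. Its unadjusted limma p was 0.00217, and adjusted over the 32120 tested probes it was 1, so the gene was not called. The two-sided exact permutation test gave p = 0.1, the smallest that 3 arrays against 3 allow. The difference was 3.57 within the first array series and 4.95 within the second, and leaving out single BAT arrays gave 3.70 to 5.17. Over the 24 alternatives with a test the adjusted p ranged from 0.0668, with array weights, to 1. The brown adipocyte median overlapped between the genotypes in BAT, at 9.27 to 9.60 in WT and 9.47 to 9.61 in Lr11-/-. One of these markers, Dio2, which activates thyroid hormone in brown fat, read 4.44, 4.0 and 1.67 on the WT BAT arrays and 5.11, 4.20 and 5.14 on the Lr11-/- BAT arrays. Its lowest array, WT BAT replicate 3, was also the lowest for Mfsd2a, the difference was 1.45 (limma adjusted p = 1), and its part in the Mfsd2a difference was not tested. The skeletal muscle median was high on WT BAT replicates 1 and 3 and on Lr11-/- BAT replicate 1, and Mfsd2a was 3.07 on the last of these and 1.69 and 3.13 on the Lr11-/- arrays where that median was low. B lymphocyte markers, summed over 4 genes, were 0.631 to 0.965 times the upper quartile in WT BAT and 0.256 to 0.574 times in Lr11-/- BAT, and their part in the difference was not tested. The depot difference of Mfsd2a in WT was 2.29, given as at least 3.15-fold, with groups that overlapped and values from 1.2 to 3.42 when single arrays were left out. In Lr11-/- it was 1.09, with 0.67 to 1.90 when single arrays were left out, and neither carries a test.

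**Figure D2:**
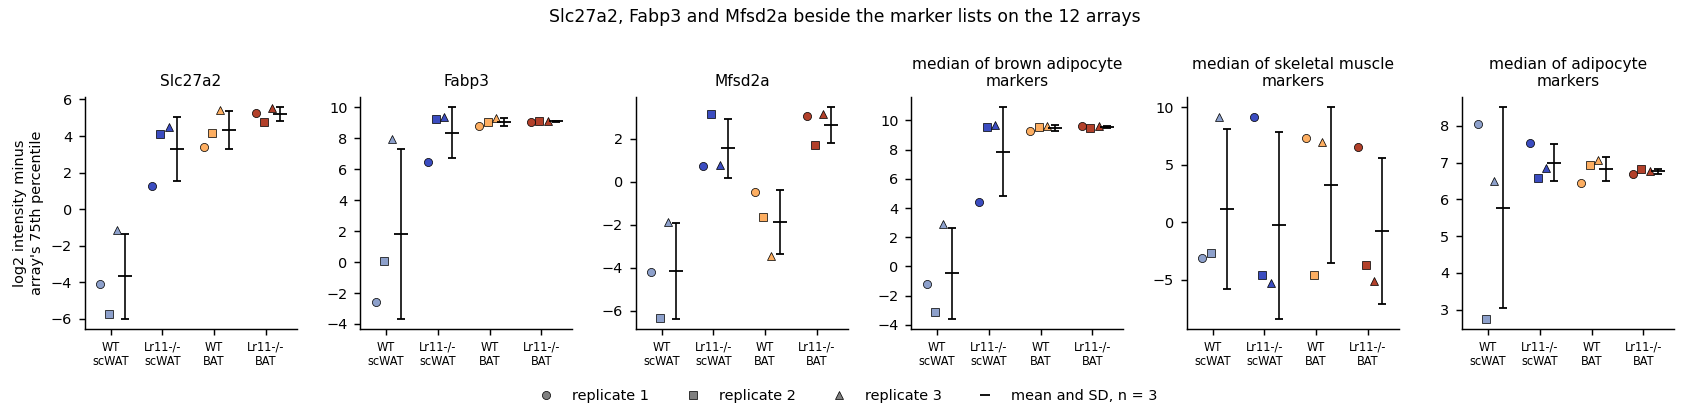
Levels of Slc27a2, Fabp3 and Mfsd2a on the 12 arrays beside the median level of the brown adipocyte, skeletal muscle and adipocyte markers, all as log2 intensity minus the 75th percentile of the array, with bars for the mean and SD of 3 arrays. Skeletal muscle markers are high on WT scWAT replicate 3 and Lr11-/- scWAT replicate 1. Fabp3 is at 9.24 and 9.36 on replicates 2 and 3 of Lr11-/- scWAT. There the muscle median is -4.60 and -5.27, with 3 of the 8 muscle markers well above background on each array. The part of the markers in these Fabp3 levels was not tested. In BAT the genotypes are apart for Mfsd2a and overlap for the median of the brown adipocyte markers. The part of these markers in the Mfsd2a difference was not tested.

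Read across the 10 genes in scWAT, 3 were higher on every Lr11-/- array than on every WT array (Slc27a2, Fabp4 and Mfsd2a) and 1 was lower (Slc27a3). Over all tested probes 11.7% were higher and 8.75% were lower without overlap. Because members were selected on this contrast, nothing is read from these counts. The smallest of the 3 chosen rises was 5.69 for Mfsd2a, and the largest among the other genes by their brightest probe was 0.94 for Fabp4. The median difference was 0.54 over the 10 genes and 0.04 over all tested probes.

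In BAT, limma called 0 of the 10 genes, and at an unadjusted p under 0.05 there was 1, Mfsd2a. Calls were rare over the whole table, at 0.0187% of tested probes, with 2.12% at an unadjusted p under 0.05. By their brightest probes 2 of the 10, Slc27a4 and Mfsd2a, were higher on every Lr11-/- BAT array than on every WT BAT array, and 7.39% of all tested probes were. The median difference was 0.23 over the genes and 0.04 over all probes. Apart from Mfsd2a, every interval of the 10 included 0, and the narrowest ones, those of Slc27a3 and Slc27a4, reached 0.54 and 0.85 at their upper ends.

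Between the depots of WT mice, 3 of the 7 genes tested were called, Slc27a4 and Fabp4 higher and Slc27a3 lower in BAT. Over all tested probes 15.7% were called higher and 9.13% lower in BAT. Between the depots of Lr11-/- mice, 0 of the 7 were called by limma and 1, Slc27a4, had an unadjusted p under 0.05 (0.00898), where 0.0405% of all tested probes were called and 9% had an unadjusted p under 0.05. For the 3 genes called in WT, the Lr11-/- depot difference was also subtracted from that of WT. This gave -0.66 for Slc27a3 (limma adjusted p = 0.492), 0.0026 for Slc27a4 (0.999) and 0.87 for Fabp4 (0.471). For that contrast limma called 0% of all tested probes, so a call in WT alone is not read as a depot difference lost in Lr11-/-. With array weights Slc27a4 was called in Lr11-/- (limma adjusted p = 0.036), a setting in which 2022 probes were called in that contrast against 13 without weights.

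**Figure D3:**
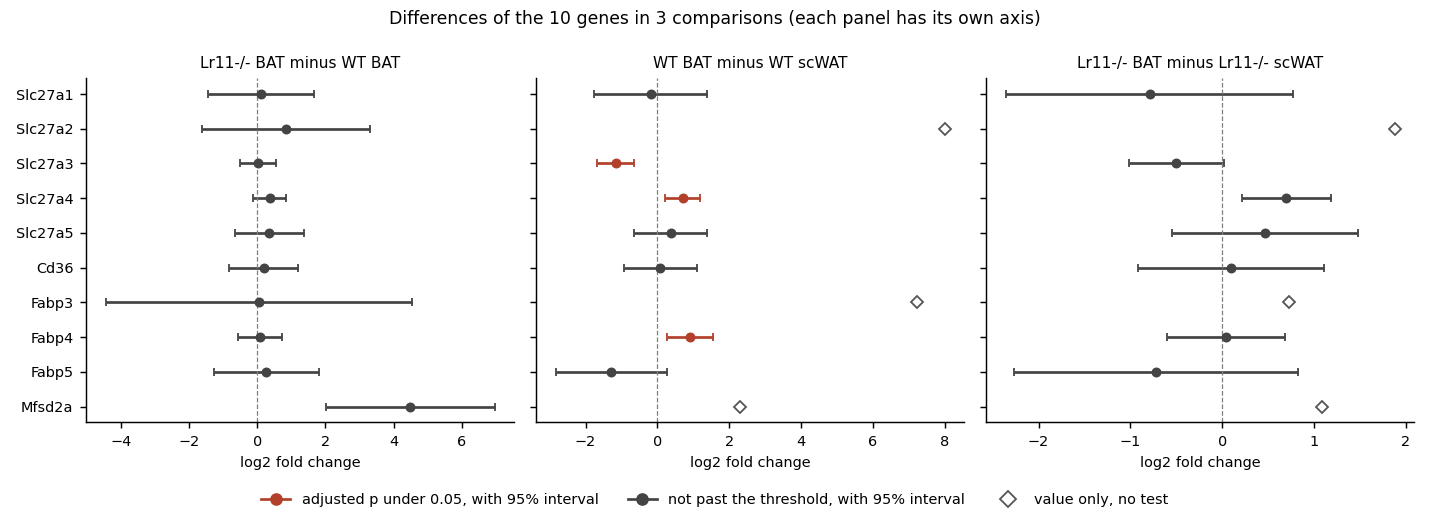
Log2 fold change of the 10 genes between genotypes in BAT (left), between depots of WT mice (middle) and between depots of Lr11-/- mice (right), with 95% intervals from limma, red where the adjusted p was under 0.05, and open diamonds for values without a test. In BAT only the interval of Mfsd2a lies apart from 0, and Slc27a3, Slc27a4 and Fabp4 are called between the WT depots.

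The rest of the uptake pathway was described by 42 further genes in 5 lists, of which 35 had a tested probe. In scWAT 28 of the 35 had a higher mean in Lr11-/-, with a median difference of 0.61, and limma called 1 higher and 0 lower, against 3.4% of all tested probes called higher and 1.87% lower. The called gene was Ppara, the nuclear receptor that senses fatty acids and drives their oxidation. Ppara is also in the authors' list of top scWAT rises on these arrays, so its call is not separate from earlier results. Vldlr and Acsl1, also among the 35, are in that list too. The scWAT counts and medians that include them are likewise not separate from it. Ppara read 0.31, -2.51 and 1.98 on WT scWAT arrays and 1.81, 6.04 and 6.23 on Lr11-/- scWAT arrays, so replicate 1 of Lr11-/- overlapped with WT. The difference was 4.77 (limma adjusted p = 0.0498), close to the threshold, and with quantile normalisation, median scaling or no scaling 0 of the 35 were called. In the second array series alone 15 were, where 7365 of 33895 tested probes were called against 1692 of 32120 over both series. Within the first array series, with 1 array a group, 24 of the 35 genes were lower in Lr11-/- scWAT, and the median was -0.29. In BAT 0 of the 35 were called and 0 had an unadjusted p under 0.05, with 21 means higher and 14 lower. The largest BAT difference was 1.60 for Ffar4, a long-chain fatty acid receptor (limma adjusted p = 1).

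In the list of delivery at the vessel wall, all 8 genes tested had a higher mean in Lr11-/- scWAT and 0 were called, with a median of 0.92 and a range from 0.42 for Angptl4, an inhibitor of lipoprotein lipase, to 1.82 for Vegfb, a growth factor that promotes endothelial lipid uptake. Vegfb (limma adjusted p = 0.0537) and Lmf1, a maturation factor of lipoprotein lipase (1.26, limma adjusted p = 0.0589), came nearest to the threshold. All 8 were also higher within the second array series, with a median of 1.65, whereas within the first series 5 of the 8 were lower in Lr11-/- and the median was -0.76. Without WT scWAT replicate 2 all 8 were higher and the median was 0.49. Lpl itself, the lipase that frees fatty acids, had a difference of 1.17 (limma adjusted p = 0.208). Between WT depots limma called 11 of the 35 pathway genes higher and 1 lower in BAT, against 15.7% and 9.13% of all tested probes. Of the 8 vessel wall genes 4 were called higher in BAT than in scWAT. These were Vegfb by 2.58 (limma adjusted p = 0.00634), Lmf1 by 1.92 (0.00589), Nrp1 by 1.43 (0.0235) and the Vegfb receptor Flt1 by 1.07 (0.0236). In that order the differences were 1.82, 1.40, 0.57 and 0.36 within the first array series and 2.96, 2.18, 1.86 and 1.43 within the second. The median of 6 endothelial markers was 2.64, 2.10 and 1.31 over the WT scWAT arrays, 1.53, 2.11 and 1.72 over the Lr11-/- scWAT arrays, and 1.98 to 2.40 over the BAT arrays.

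Genes that activate or bind fatty acids in the cell had a median difference of 0.94 in Lr11-/- scWAT, with 8 of 9 means higher and 0 called, from -0.39 for Acsl4 to 2.28 for Acsl1, the main acyl-CoA synthetase of adipocytes. Within the first array series 8 of the 9 were lower in Lr11-/-, all but Acsl3, with a median of -0.34, against 8 of 9 higher and a median of 1.67 in the second. Without WT scWAT replicate 2 the median was 0.47. Between WT depots Scp2, a sterol and fatty acyl carrier, was higher in BAT by 1.76 (limma adjusted p = 0.0322), Dbi, the acyl-CoA binding protein, by 1.73 (0.0432) and Acbd5 by 0.81 (0.0479). These differences were 0.24, 0.30 and 0.25 within the first array series and 2.52, 2.44 and 1.09 within the second. WT scWAT replicate 2, with the lowest adipocyte marker median, was the lowest array for each. Acsl4, which prefers arachidonic acid, was the 1 gene of the 5 lists called lower in BAT, where it fell by 0.92 (limma adjusted p = 0.012). Its differences were -0.77 within the first series and -0.99 within the second. Pathway calls between WT depots were not repeated under the alternatives. Among the 8 sensors and regulators, Ppara was higher in WT BAT by 6.38 (limma adjusted p = 0.00677), Ffar4 by 3.70 (0.017), Pparg, the master regulator of adipocytes, by 2.49 (0.0177) and the AMP kinase subunit Prkab1 by 1.37 (0.00877). In that order the differences were 5.88, 1.93, 1.13 and 1.18 within the first array series and 6.63, 4.58, 3.17 and 1.47 within the second. Ppard had the lowest difference of that list in scWAT, at -0.05.

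The caveolae and membrane partners, Cav1, Cav2, Cavin1, Cavin2, Got2 and Scarb1, had 0 of 6 called in any comparison, and their scWAT differences ran from -0.30 for Cavin1 to 1.16 for Cavin2, with 5 of 6 lower in Lr11-/- in the first array series and 5 of 6 higher in the second. Of the other members of the Slc27a, Fabp and Mfsd2 families 4 of 9 had a tested probe. They ran from -3.19 for Fabp7, the brain-type binding protein, to 1.11 for Fabp12 in scWAT, and 0 were called. Fabp7 was highest on WT scWAT replicate 2, at 1.15, and between -6.12 and -2.94 on the other 11 arrays. For the difference between the genotype effects of the tissues, limma called 0 of the 35 genes and 0% of all tested probes, with 4 of the 35 genes and 3537 of the probes at an unadjusted p under 0.05.

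**Figure D4:**
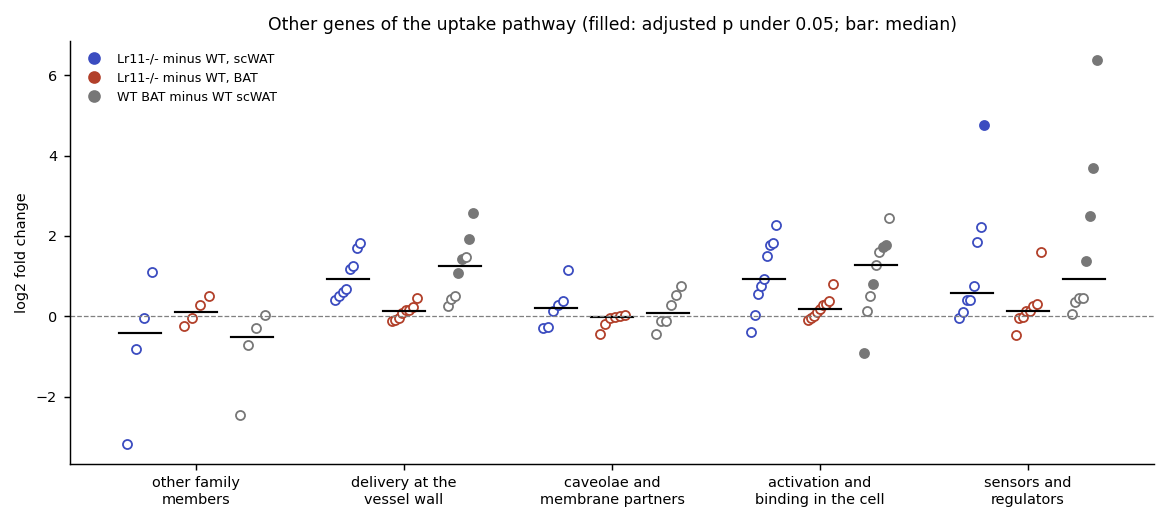
Log2 fold change of 35 other genes of fatty acid uptake in 5 lists, for Lr11-/- minus WT in scWAT (blue) and in BAT (red) and for WT BAT minus WT scWAT (grey), with filled points where the limma adjusted p was under 0.05 and a bar at the list's median. The scWAT points of the vessel wall list all lie above 0, and Ppara is the filled blue point at 4.77.

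The genes most like the 3 chosen ones were ranked by Pearson's r over the 12 arrays among 14692 genes, as a description, since the points share arrays and fall into 4 groups. Slc27a2 was followed most closely by Atp5e (r = 0.993), Accsl (0.991), Mfsd4b1 (0.991), H2-Ke6 (0.988) and Cox7b (0.987), of which Atp5e and Cox7b encode subunits of mitochondrial respiratory complexes. Fabp3 was followed by Me3 (0.988), the mitochondrial malic enzyme, Atp5g2 (0.986), Gapdh (0.982), Gm12070 (0.981) and Pdk4 (0.977). Mfsd2a had lower values, with Adal (0.920), Azgp1 (0.917), the clock gene Per2 (0.911), Hsd17b14 (0.910) and Glo1 (0.908). The 3 lists shared no gene.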

How the data were processed

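Expression was read from 12 Agilent mouse arrays of 1 colour. The deposited values are intensity readings made by the authors with Feature Extraction 10.10.1.1, background-subtracted within each array, on a linear scale and not normalised between arrays. Leaving aside controls, the 62976 features of an array comprise 59305 spots and 55681 probes. Outlier spots (128 to 181 an array) were dropped, spots of a probe were averaged after log2, and the array's 75th percentile (intensity 374 to 632) was subtracted. A probe was tested if some group had it well above background on each of its 3 arrays, which left 32120. No spot was saturated, and 32377 to 37002 spots an array were well above background. Precision is limited by how few arrays there are and by the brightness over background.

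Groups came from the source labels, and replicate numbers are names only. The 10 members and all gene lists were chosen with earlier results of these data known. Symbols came from RefSeq accessions on GRCm38.p6 (27235 of 28685 probes matched). Since the array was designed on mm9, no probe coordinates are given. A gene was read from its brightest tested probe.

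Contrasts were fitted in R 4.3.3 with limma 3.58.1 (lmFit, eBayes), with 1 mean for each of 4 groups, 1 shared spread and two-sided tests. Calls are at p under 0.05 after Benjamini-Hochberg adjustment across the 32120 probes. Of 385440 values 28 were missing and left out. Single genes were also compared by an exact permutation test, whose smallest p is 0.1. For a probe that was dim on some array of its lower group, an "at least" fold is given, in which the dim array takes the weakest signal that still counted as well above background there. Besides the members and Sorl1, the genes named are those of the pathway and marker lists past the threshold, up to 10 a comparison, the highest and lowest of a pathway list, and the 5 with the highest Pearson's r. Lpl was named, and the scWAT differences of Cox8b, Dio2 and Zic1 were added, after their values were seen. The steps were tested on simulated data, and Python 3.11.15 with matplotlib 3.10.9 drew the figures. Alternatives were quantile normalisation, median scaling, no scaling, normexp on the median signals (offset 50), no filter, a filter requiring all 12 arrays, keeping outlier spots, array series as a block, slide as a random block, only the groups compared, each array series alone, array weights, all probes of a gene, and each array left out. Splitting the pathway lists by array series and by arrays left out was added after the data were seen.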

Additional observations from a re-analysis of the deposited data

How the results depend on the processing

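Over 26 alternatives, or 25 where a filter on all 12 arrays left Slc27a2 and Mfsd2a untested, 598 single-gene values had a test, of which 537 kept their direction and side of the threshold, 29 reversed, and 30 lost and 2 gained the call. Of 434 values without a test, 28 moved by more than the spread between arrays and 21 changed sign. The first array series alone, with 1 array a group, gave values without a test. The cause of the changes below was not tested. No paired analysis was possible because the labels carry no replicate numbers that pair arrays. Median scaling moved the median of all probes in scWAT from 0.04 to 0.17 and no scaling to -0.20, and in the WT depots from 0.07 to 0.20 and to -0.25.

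Of the values without a test, Cd36 in scWAT was -0.20 with quantile normalisation, -0.064 with no scaling and -1.52 in the first array series, and Cd36 was -1.30 between WT depots in that series. Fabp5 in scWAT was 0.72 in the second array series and 0.24 with array weights, and 0.24 between Lr11-/- depots in the first series. Slc27a1 in scWAT was -0.22 and Fabp3 between Lr11-/- depots -0.079 with array weights, and the latter was -0.20 in the second series. Slc27a5 in scWAT was -0.018 in the second array series, Slc27a3 in BAT was -0.11 in the first, and with arrays left out 9 further values changed sign.

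Among tested values, without scaling, Cd36 was -0.030 between Lr11-/- depots and -0.24 between WT depots, Fabp3 was -0.013 in BAT, Fabp4 was -0.086 between Lr11-/- depots and Slc27a3 was -0.029 in BAT. With quantile normalisation, Cd36 was -0.23 between WT depots and Fabp4 was -0.037 between Lr11-/- depots, and with normexp Slc27a3 was -0.0089 in BAT. In the second array series alone, Cd36 was -0.22 and Fabp4 -0.17 between Lr11-/- depots, Fabp3 was -0.081, Fabp4 -0.0021 and Slc27a5 -0.061 in BAT, and Slc27a1 was 0.51 between WT depots. With array weights, Cd36 was -0.082 and Fabp4 -0.12 between Lr11-/- depots. With each array left out in turn, BAT differences ran from -0.092 to 0.16 for Fabp3, -0.017 to 0.13 for Fabp4, -0.020 to 0.36 for Slc27a1, -0.094 to 0.17 for Slc27a3 and -0.028 to 0.65 for Slc27a5. WT depot differences ran from -0.38 to 0.70 for Cd36, -0.97 to 0.40 for Slc27a1 and -0.071 to 0.87 for Slc27a5, and Lr11-/- depot differences from -0.14 to 0.31 for Cd36 and -0.18 to 0.20 for Fabp4.

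Sorl1 in BAT missed the threshold at -3.58 with median scaling, -2.45 with normexp, -3.12 in the second array series alone, -3.91 to -3.14 with arrays left out, and at -3.63 with no filter, the array series as a block or only the 2 groups (adjusted p 0.00184 to 0.26 over all alternatives). Sorl1 in scWAT missed it at -4.34 with only the 2 groups (adjusted p = 0.12). Of the 7 genes tested between WT depots, 1 was called with no scaling, no filter, only the 2 groups or array weights, and 1 to 3 with arrays left out. Over all probes those settings called 7191, 5794 (of 55681 tested), 3920 and 5246 in that contrast, against 7967 in the main fit. With arrays left out 3104 to 10602 were called. Between Lr11-/- depots 1 was called with array weights, where 2022 probes were called in all, against 13 in the main fit. The count of genes higher without overlap in scWAT was 1 with the filter on all 12 arrays, where 12.2% of all probes were. It was 6 in the second array series alone, where 35.4% of all probes were against 11.7% over both series. With arrays left out the count was 3 to 5. It was 5 without WT scWAT replicate 3 (19.4% of all probes) or Lr11-/- scWAT replicate 1 (28.3%). It was 4 without WT scWAT replicate 1 (20.8%) or replicate 2 (14.6%). Without any other array it was 3, with at most 13.4% of all probes. Of the other pathway genes in scWAT, 0 were called with quantile normalisation, median scaling, no scaling, no filter, the array series as a block or only the 2 groups, 2 with normexp or the filter on all 12 arrays, 7 with array weights, 15 in the second array series alone (7365 probes called in all, against 1692), and 0 to 13 with arrays left out. The settings with 0 called 1572, 1093, 838, 151, 1294 and 0 of all probes, in the order given. Over all probes 1339 were called with normexp, 1643 with that filter, 3390 with array weights and 17 to 6402 with arrays left out. For the difference between tissues, 3 were called in the second array series alone, 1 with array weights and 0 to 2 with arrays left out. Over all probes those fits called 872, 1084 and 0 to 1232, against 0 in the main fit.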
